A study of Mus musculus with 3 samples.

Results

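The 43 nuclear receptor genes described here were taken by symbol from 24421 gene rows and grouped by ligand class. The class of a receptor is background knowledge and was not measured. Their RNA was counted in 3 control libraries of mouse bone marrow hematopoietic stem and progenitor cells (HSPCs), sorted as lineage-negative, c-Kit+ and Sca-1+ cells. They came from C57BL/6 mice that carried Cicflox/flox (both alleles of the transcriptional repressor gene Cic flanked by loxP sites) and had received tamoxifen. The labels name no Cre transgene for these mice, and give no age, tamoxifen dose or interval. The study also had a second mouse group, which is not analysed here, so the values below describe tamoxifen-treated control cells, and no comparison here can show an effect of tamoxifen or of Cic.

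Nuclear receptors are transcription factors that many small lipid-soluble ligands switch between a repressing and an activating state. Steroid receptors wait with heat shock chaperones for their hormone and bind DNA mostly as pairs of the same protein, whereas thyroid hormone, retinoic acid, vitamin D, PPAR and LXR receptors pair with a retinoid X receptor (RXR). In blood formation the retinoic acid receptors are known for their part in granulocyte maturation and stem cell maintenance, and oestrogen for its effect on stem cell division. Tamoxifen is a selective oestrogen receptor modulator. Its hydroxylated metabolite binds the oestrogen receptors and also the mutated receptor domain used in inducible Cre proteins.

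The gene rows summed to 30718562, 25097769 and 30032593 counts in libraries 1, 2 and 3. Levels are CPM (counts scaled to a common total of gene counts), with mean ± SD of 3 libraries where a mean is given. Where no read was counted, the depth allows a level of up to 0.0977 to 0.12 CPM (3 counts in a library), and this covers counting error only. Nothing in the labels ties each library to its own animal, so the spread between libraries may be technical. Xist, transcribed from the silenced X chromosome, was counted at 6066 to 6490.5 CPM and the Y-linked gene Kdm5d at 41.3 to 56.2 CPM, both in every library. Of 8 stem and progenitor markers, 8 reached 1 CPM, with Kit at 826 ± 71.0 CPM and Hlf at 679 ± 110.2 CPM as the highest. Markers of myeloid cells differed most between libraries. The summed level of 5 granulocyte-monocyte progenitor genes (highest Mpo and Elane) was 804, 1846 and 2930 CPM in libraries 1, 2 and 3, and that of 5 neutrophil genes (highest Ngp and S100a9) was 166, 39.0 and 90.5 CPM. Summed levels ranged from 59.7 to 79.0 CPM for 7 macrophage and monocyte genes (highest Cd68 and Csf1r), from 351 to 388 CPM for 4 dendritic cell genes (nearly all Flt3, then Xcr1) and from 53.3 to 64.7 CPM for 5 B cell genes (highest Cd79b and Cd79a). They ranged from 85.2 to 100.5 CPM for 5 T and NK cell genes (nearly all Nkg7, then Klrb1c). Cd3e had 0, 0 and 2 counts. The range was 21.8 to 27.0 CPM for 6 erythroid genes (highest Alas2 and Slc4a1, with Hbb-bs and Hba-a1 at 0). Hba-a1 and Hbb-bs share 72.3% and 53.2% of their 50-base words with other annotated genes, which leaves both levels uncertain. For 7 stromal, endothelial and fat cell genes the range was 10.9 to 17.4 CPM (highest Lepr and Col1a2, with Col3a1 and Adipoq at 0).

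Nuclear receptors recognise DNA through the first zinc finger of their DNA-binding domain, where 3 residues of the recognition helix choose the target hexamer. The coding stretches of this helix are shown because they sort the receptors by these residues and can be set beside the levels. Groups of different residues need not differ in the hexamer they read, which was not measured. They were read from GENCODE M21 transcripts (GRCm38), 5′ to 3′, with the 3 codons in capitals.
Pgr: tgtGGGAGCtgcaagGTCttcttt
Nr3c2: tgcGGCAGCtgcaaaGTCttcttc
Esr1: tgcGAAGGCtgcaagGCTttcttt
Esrra: tgtGAGGCCtgcaaaGCCttcttc
Rara: tgtGAGGGCtgtaagGGCttcttc
Rxrb: tgcGAGGGCtgcaagGGTttcttc
Nr2c2: tgtGAAGGTtgcaaaGGTttcttc
Hnf4a: tgtGACGGCtgcaagGGGttcttc
Nr2f6: tgcGAGGGCtgcaagAGTttcttc
The finger was found in 41 of 43 genes, and Nr0b1 and Nr0b2 encode proteins known to lack the DNA-binding domain. By the residues that the 3 codons encode, the 41 genes formed 8 groups. The largest group held 24 genes, among them Rara, Rxrb and Nr2c2, in 23 different nucleotide spellings. It carried 65.1% of the summed level of all 43 genes in CPM per kilobase of exons. The glucocorticoid, mineralocorticoid and progesterone receptor genes formed a group of 3 with 18.8% of the summed level. The oestrogen receptor genes Esr1 and Esr2 formed a group of 2 with 3.25%, and the oestrogen-related receptor genes formed another of 3 with 0.948%. Hnf4a, with Hnf4g and Nr2e1, stood in a group that carried 8.63%.

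Most nuclear receptor genes were expressed in the control HSPCs, but at moderate levels. Of 43 genes, 25 (58.1%) reached a mean of 1 CPM, against 53.1% of all gene rows. At least 10 CPM was reached by 16 of 43 (37.2%), against 37.9% of all rows, and at least 100 CPM by 2 of 43 (4.65%), against 9.03%. No count in any library was found for 6 of 43 (14.0%), against 29% of all rows. The median over all 43 genes was 4.50 CPM, against 1.73 CPM over all gene rows. These shares lie near those of all gene rows, apart from the share with no count. In bulk RNA, fewer cells of a type and less RNA per cell cannot be told apart. The summed level of the 43 genes was 819, 826 and 761 CPM in libraries 1, 2 and 3.

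**Figure D1:**
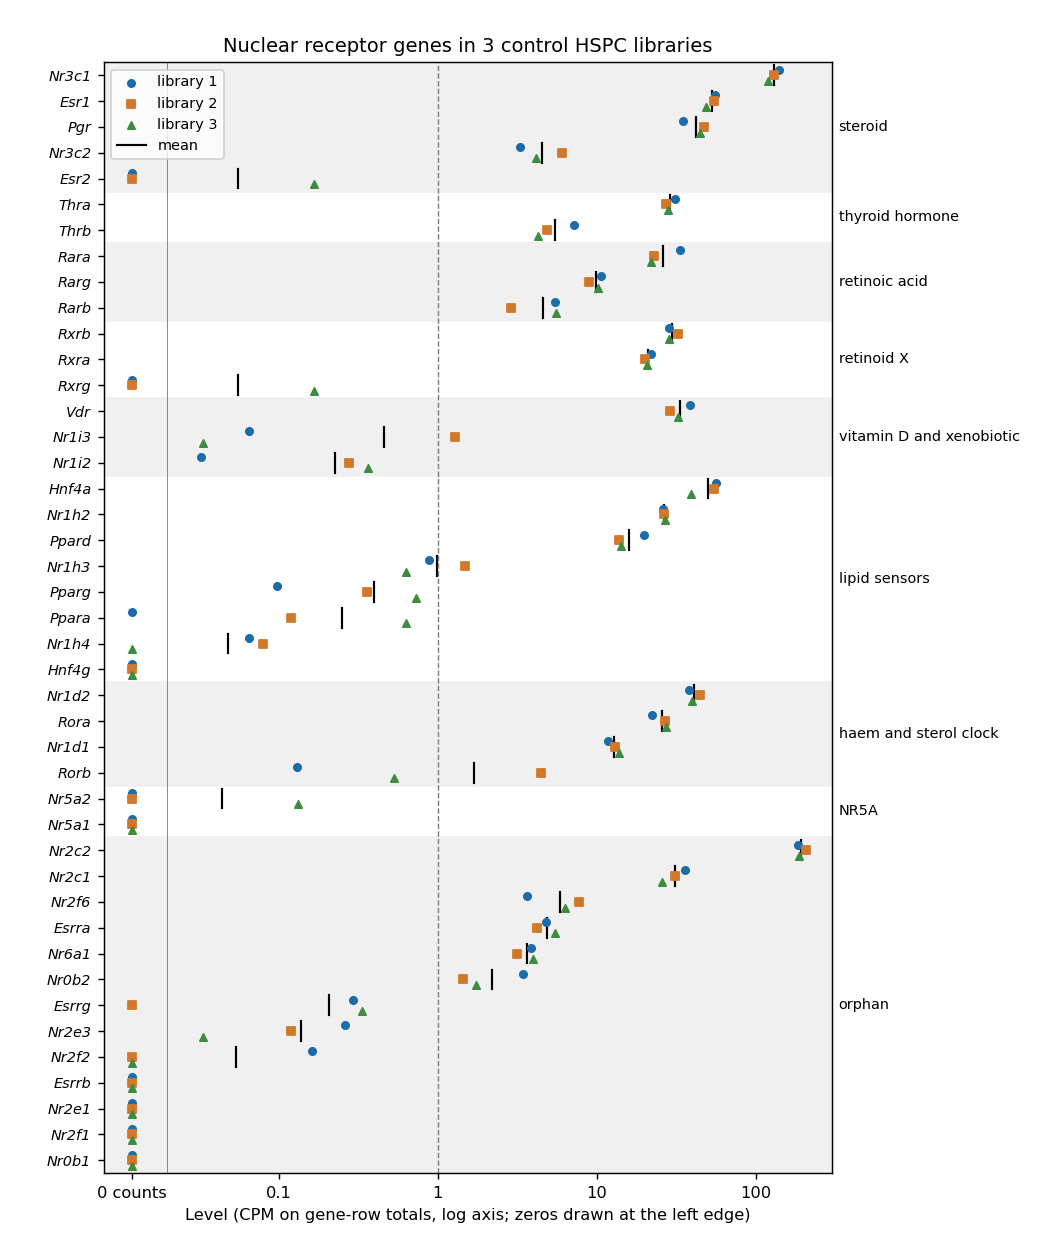
Level of each of the 43 nuclear receptor genes in libraries 1, 2 and 3 (CPM, log axis, with zeros drawn at the left edge), grouped by ligand class, with the mean as a black line and 1 CPM as a dashed line. The thyroid hormone and retinoic acid receptor genes lie between 2.87 and 33.3 CPM in every library, while each other class holds a gene under 1 CPM in at least 1 library.

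Compared per kilobase of annotated exons, Nr3c1 and Nr2c2 lay above all other receptor genes in every library. Nr3c1, the glucocorticoid receptor gene, lay at 16.8 ± 1.36 CPM per kilobase, Nr2c2 at 12.9 ± 0.792 and Hnf4a at 10.3 ± 1.96. The libraries of Nr3c1 did not overlap those of Nr2c2. Hnf4a, lowest at 8.06 CPM per kilobase in library 3, did not overlap Nr1h2, the next gene in the order, but overlapped Nr1d2 (8.21 in library 2) and Rxrb (8.17 in library 2). The genes from rank 4 to rank 14, from Nr1h2 at 7.87 to Rxra at 3.81 CPM per kilobase, overlapped with their neighbours, and a gap followed before Rarg at 2.31. The first 6 genes held 52.6% of the summed level per kilobase and the first 14 held 87.3%. The order at the top depended on the length used. With the longest annotated transcript in place of all exons, Nr2c2 came first at 25.1 CPM per kilobase, then Nr3c1 at 20.1, Nr1h2 at 13.2, Thra at 11.7 and Hnf4a at 11.4. Nr2c2 shares 31.2% of its exon bases with genes on the opposite strand, mainly Mrps25 (35.2 ± 3.81 CPM), and the strand setting of the counting is not given in the sources used here.

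Among the steroid receptors, which include the direct targets of tamoxifen, 4 of 5 genes reached 1 CPM. Nr3c1 (chromosome 18, 39410545 to 39519421, GRCm38) had counts of 4274, 3264 and 3551, and levels of 139, 130.1 and 118 CPM in libraries 1, 2 and 3. It was highest in library 1, and every library lay at 118 CPM or above. Esr1, which encodes oestrogen receptor alpha (chromosome 10, 4611593 to 5005614), lay at 55.3, 54.7 and 48.5 CPM in libraries 1, 2 and 3, from 1700, 1373 and 1458 counts. Its level differed between libraries by at most 1.14-fold. Esr2, which encodes oestrogen receptor beta, had 0, 0 and 5 counts, so the oestrogen receptor RNA counted here was nearly all Esr1.

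Pgr, the progesterone receptor gene and a textbook oestrogen target (chromosome 9, 8899833 to 8968611), lay at 34.7, 47.3 and 44.5 CPM in libraries 1, 2 and 3. Library 1 had the lowest Pgr level, and its Esr1 level was the highest by a narrow margin (55.3 CPM, against 54.7 in library 2). A link between the levels of these genes was not tested. The mineralocorticoid receptor gene Nr3c2, which also binds glucocorticoids, lay at 3.29, 6.06 and 4.16 CPM. Within each library Nr3c1 exceeded Nr3c2 per kilobase, by a mean log2 difference of 4.48 (SD 0.45).

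Tamoxifen is carried, modified and bound by further proteins, and 7 of 9 such genes reached 1 CPM (background 53.1% of all gene rows). The drug efflux pump genes Abcg2 and Abcb1b lay at 57.9 ± 9.81 and 54.8 ± 5.04 CPM. Dhcr7, a cholesterol synthesis gene whose product forms part of the antioestrogen binding site, lay at 33.9 ± 8.24 CPM. Cyp2d22 was the lowest with a count at 1.34 ± 0.411 CPM, and the cytochrome genes Cyp3a11 and Cyp3a13, mouse members of a family known to metabolise tamoxifen in liver, had no count in any library. Of 6 oestrogen receptor targets, 5 reached 1 CPM. Ctsd lay at 215 ± 17.0 CPM (34.4% of its exon bases are shared with another gene), Igfbp4 at 115 ± 16.3 CPM and Xbp1 at 103 ± 15.3 CPM, while Tff1 had 0, 1 and 0 counts. These targets are also set by other factors, and no untreated mice were measured here.

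Of 8 glucocorticoid receptor targets, 7 reached 1 CPM. Dusp1, a MAPK phosphatase gene, lay at 112 ± 23.3 CPM, the clock gene Per1 at 86.2 ± 13.4 CPM and Fkbp5, a chaperone gene that dampens the receptor, at 79.5 ± 10.4 CPM. The kinase gene Sgk1 was the lowest with a count at 9.02 ± 2.58 CPM, and Tat, known as a liver target, had no count. All 8 steroid receptor chaperone genes reached 1 CPM, led by Hspa8 at 3033 ± 665 CPM, Hsp90ab1 at 2481 ± 186 CPM and Hsp90aa1 at 1279.6 ± 245 CPM. Hspa8 and Hsp90aa1 share 39.4% and 47.5% of their 50-base words with other annotated genes, which leaves both levels uncertain. Fkbp5 was the lowest of this list.

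Both thyroid hormone receptor genes reached 1 CPM. Thra, the alpha receptor gene (chromosome 11, 98740638 to 98769006), lay at 31.1, 27.3 and 27.9 CPM in libraries 1, 2 and 3, and Thrb, the beta receptor gene, at 7.19, 4.86 and 4.30 CPM. Thra exceeded Thrb in every library, by 3.01 (SD 0.27) on the log2 scale per kilobase. The last exons of Thra and Nr1d1 overlap on opposite strands, over 5.70% of the exon bases of Thra and 8.55% of those of Nr1d1. Of 14 measured genes that handle steroids, thyroid hormone and vitamin D, 9 reached 1 CPM. The amino acid and thyroid hormone transporter gene Slc16a10 lay at 48.0 ± 4.80 CPM and the activating deiodinase gene Dio2 at 40.5 ± 10.4 CPM. Hsd17b1 was the lowest with a count at 0.801 ± 0.446 CPM, and the deiodinase genes Dio1 and Dio3, the aromatase gene Cyp19a1 and the vitamin D degrading gene Cyp24a1 had no count in any library.

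All 3 retinoic acid receptor genes reached 1 CPM, led by the alpha receptor. Rara (chromosome 11, 98927818 to 98974942) lay at 33.3, 22.8 and 21.8 CPM in libraries 1, 2 and 3, with library 1 above both others. Rarg, the gamma receptor gene known for stem cell maintenance in mice, lay at 10.6, 8.89 and 10.1 CPM, and Rarb, the beta receptor gene, at 5.44, 2.87 and 5.53 CPM. Rara exceeded Rarg by 1.30 (SD 0.27) and Rarb by 2.67 (SD 0.46) on the log2 scale per kilobase, in 3 of 3 libraries each. Rarb shares 38.4% of its exon bases with opposite-strand genes, mainly Top2b, which was counted at 359 ± 41.0 CPM.

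Rarb is itself a textbook target of retinoic acid receptors. Its promoter is shown because it was the single receptor gene window with the spelling searched here of the spaced repeat that they bind. The spelling searched is that of the Rarb repeat itself, so the match in Rarb was fixed by this choice and is not a finding. Other spellings and spacings were not searched, so genes without this match may still hold such a repeat. These are the 100 bases before the annotated start at chr14:16575477-16575576 on the minus strand (RefSeq, GRCm38.p6), with the matched bases in capitals.
Rarb: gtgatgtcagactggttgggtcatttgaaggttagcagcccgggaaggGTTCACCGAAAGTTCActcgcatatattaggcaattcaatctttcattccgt
The motif, GTTCA and AGTTCA with 5 bases between them, was searched on both strands in windows of 250 bases before and 50 after each annotated start, and occurred in 11 of 32851 windows (0.0335%) and in 1 of 60 windows of the receptor genes. The match ends 36 bases before the start. The single hexamer AGGTCA was found in 12 of 60 windows (20.0%), against 16.3% of all windows. The oestrogen response element, GGTCA and TGACC with 3 bases between them, was found in 0 of 60 and in 0.07% of all windows. A steroid response element (GNACA and TGTNC with 3 bases between them) was found in 0 of 60 and in 0.475%, and the extended hexamer TCAAGGTCA in 0 of 60 and in 0.423%. In these windows the E-box CACGTG was found in 6 of 60 (10.0%), against 7.15% of all. Overlapping Rara windows, starting at 98937446 and 98937468, hold the same E-box, so this site was counted more than once. RefSeq windows were matched for 39 of the 43 genes.

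Of 7 listed retinoic acid targets, which do not include Rarb, 4 reached 1 CPM, with the retinal reductase gene Dhrs3 at 42.8 ± 5.83 CPM, the transglutaminase gene Tgm2 at 40.4 ± 7.61 CPM and Cd38 at 5.85 ± 1.67 CPM. Stra8 had no count. Of 12 retinoid handling genes, 5 reached 1 CPM. The retinaldehyde dehydrogenase gene Aldh1a1, whose product makes retinoic acid, lay at 39.4 ± 8.45 CPM and Rdh11 at 12.5 ± 2.14 CPM. The degrading enzyme gene Cyp26a1, which is in both lists, was the lowest with a count (0, 1 and 6 counts). The retinol importer gene Stra6 and the retinoic acid carrier genes Crabp1 and Crabp2 had none.

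RXR proteins are the shared partners of most receptors in the largest group by recognition helix residues. Rxrb (chromosome 17, 34031812 to 34038399) lay at 28.4, 32.5 and 28.3 CPM and Rxra at 21.8, 19.9 and 20.7 CPM in libraries 1, 2 and 3. Both stayed within 1.15-fold between libraries. Rxra lay below Rxrb per kilobase in 3 of 3 libraries, with a mean log2 difference of -0.96 (SD 0.17). Rxrg, the gamma gene, had 0, 0 and 5 counts.

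Of the vitamin D and xenobiotic receptor genes, Vdr alone reached 1 CPM. Vdr, the vitamin D receptor gene (chromosome 15, 97854425 to 97910630), lay at 38.4, 28.6 and 32.4 CPM in libraries 1, 2 and 3. The xenobiotic receptor genes known from liver were at or near 0, with Nr1i2 (the pregnane X receptor) at 1, 7 and 11 counts, lowest in library 1 and highest in library 3. Nr1i3 (the constitutive androstane receptor) had 2, 32 and 1 counts. Its mean of 0.458 CPM was 0.0492 CPM without library 2. Tomm40l, which was at 13.4 ± 2.20 CPM, covers 74.9% of the exon bases of Nr1i3 on the opposite strand, so this count is uncertain.

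Among the 8 lipid sensors, 3 genes reached 1 CPM, and Hnf4a, the gene of a fatty-acid-bound receptor, led in CPM and per kilobase of all exons. With the longest transcript as length, Nr1h2 lay above it (13.2 against 11.4 CPM per kilobase). Hnf4a, best known as a liver and gut regulator (chromosome 2, 163506808 to 163572910), had counts of 1729, 1358 and 1168, and levels of 56.3, 54.1 and 38.9 CPM in libraries 1, 2 and 3. Every library lay above 38 CPM, and no exon of it overlaps another annotated gene. Its relative Hnf4g had no count in any library. The oxysterol receptor gene Nr1h2 (LXR beta) lay at 25.9, 26.4 and 26.9 CPM, the narrowest spread of the 25 genes at 1 CPM or more. Nr1h3 (LXR alpha), known from macrophages and liver, lay at 0.879, 1.47 and 0.633 CPM, and its mean of 0.995 CPM lay just under 1 CPM. The bile acid receptor gene Nr1h4 (FXR) had 2, 2 and 0 counts.

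The PPAR genes bind fatty acids. Ppard, the broadly expressed delta gene, lay at 19.6, 13.7 and 14.2 CPM in libraries 1, 2 and 3. Pparg, the gene of fat cells and macrophages, had 3, 9 and 22 counts, and Ppara, the gene of oxidising tissues, had 0, 3 and 19. Both, like Nr1i2, were lowest in library 1 and highest in library 3. The summed granulocyte-monocyte progenitor genes had the same order (804, 1846 and 2930 CPM, with 5 of 5 over 2-fold). So did the summed B cell genes (53.3, 58.8 and 64.7 CPM) and steroid receptor chaperone genes (6752, 8506 and 9230 CPM). The part of any of these in the low counts was not tested. The fat cell marker Adipoq had no count. Ppard exceeded Ppara by 3.55 (SD 0.82) and Pparg by 2.89 (SD 0.77) on the log2 scale per kilobase, in 3 of 3 libraries each.

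All 8 LXR targets reached 1 CPM. The sterol exporter gene Abcg1 lay at 101 ± 10.9 CPM, Smpdl3a at 56.6 ± 8.74 CPM and Abca1 at 53.9 ± 9.43 CPM, with the desaturase gene Scd1 lowest at 4.71 ± 0.953 CPM. Of 9 PPAR targets, 5 reached 1 CPM. The mitochondrial carrier gene Ucp2 lay at 429.8 ± 15.4 CPM and the fatty acid importer gene Cpt1a at 244 ± 21.3 CPM, while Fabp4, the fatty acid carrier gene of fat cells, had 7, 1 and 0 counts.

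The REV-ERB and ROR receptors act on the same DNA elements of the circadian clock, the first as repressors bound to haem and the others as activators bound to sterols. Nr1d2 (REV-ERB beta) lay at 37.6, 44.4 and 39.8 CPM in libraries 1, 2 and 3, Rora at 22.2, 26.9 and 27.4 CPM and Nr1d1 (REV-ERB alpha) at 11.7, 13 and 13.7 CPM. These genes were each lowest in library 1. Nr1d2 exceeded Nr1d1 by 0.81 (SD 0.12) on the log2 scale per kilobase in 3 of 3 libraries. All 5 clock targets of these receptors reached 1 CPM, with Clock at 49.8 ± 5.23 CPM, Cry1 at 24.6 ± 4.04 CPM and Arntl at 19.4 ± 3.38 CPM, and Npas2 lowest at 1.75 ± 0.894 CPM.

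Rorb, a ROR gene known from retina and brain, stood apart. It had 4, 111 and 16 counts, or 0.130, 4.42 and 0.533 CPM in libraries 1, 2 and 3. Its mean of 1.70 CPM rests on library 2 and was 0.331 CPM without it. No exon of Rorb overlaps another annotated gene. The stromal, endothelial and fat cell genes, 2 of 7 at 1 CPM or more, summed to 12.9, 17.4 and 10.9 CPM in libraries 1, 2 and 3 with Col3a1 and Adipoq at 0, and their part in the Rorb count was not tested.

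Of the 2 phospholipid-bound receptor genes, Nr5a1 (steroidogenic factor) had no count and Nr5a2 had 0, 0 and 4. Among the 13 orphan receptor genes, which have no agreed hormone, 6 reached 1 CPM. Nr2c2 (the testicular receptor TR4, chromosome 6, 92091390 to 92174294) had counts of 5641, 5160 and 5617, and levels of 184, 206 and 187 CPM in libraries 1, 2 and 3. Nr2c1 (TR2), its partner as a repressor of embryonic globin genes, lay at 35.7, 30.8 and 25.7 CPM. Nr2c2 exceeded Nr2c1 per kilobase by 0.94 (SD 0.26) on the log2 scale in 3 of 3 libraries.

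Nr2f6, a repressor of the COUP-TF family known from blood cells, lay at 3.61, 7.77 and 6.29 CPM, lowest in library 1, and 54.4% of its exon bases are shared with Ocel1 (5.80 ± 0.495 CPM) on the opposite strand. Its relatives Nr2f1 and Nr2f2 had no count, and 5, 0 and 0 counts. The oestrogen-related receptor gene Esrra, a regulator of mitochondrial genes, lay at 4.79, 4.22 and 5.46 CPM, Esrrg had 9, 0 and 10 counts and Esrrb none. Esr1 exceeded Esrra by 1.69 (SD 0.26) on the log2 scale per kilobase. Nr6a1 (germ cell nuclear factor) lay at 3.87, 3.15 and 3.96 CPM. Nr2e3 had 8, 3 and 1 counts, and Nr2e1 and Nr0b1 had none.

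Nr0b2, an atypical receptor without a DNA-binding domain that represses its partners, among them Hnf4a in liver, had 105, 36 and 52 counts. This gave 3.42, 1.43 and 1.73 CPM in libraries 1, 2 and 3, so that library 1 lay 2.38-fold above library 2. The summed neutrophil genes had the same order (166, 39.0 and 90.5 CPM, with 5 of 5 at 1 CPM or more). So did the summed dendritic cell genes, over a narrower range (388, 351 and 353 CPM). The part of either cell type in the Nr0b2 count was not tested.

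**Figure D2:**
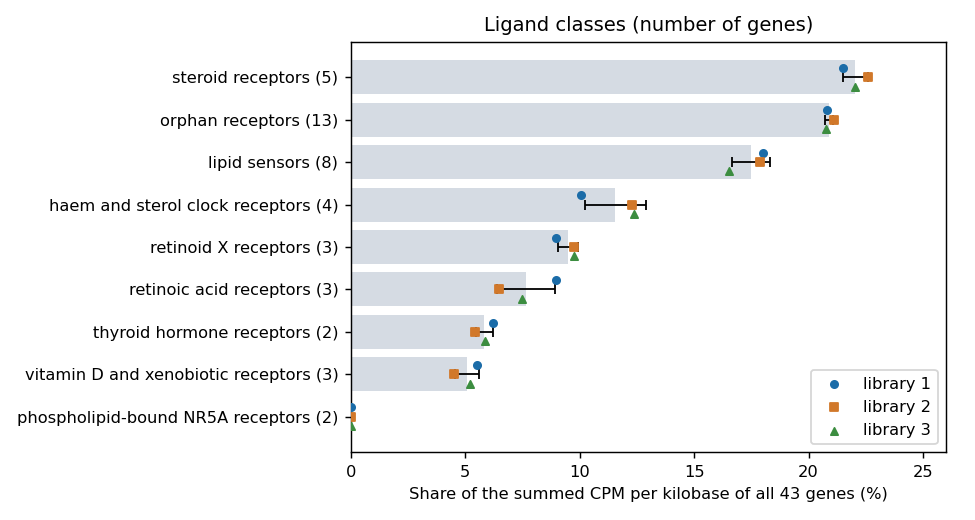
Share of the summed CPM per kilobase of all 43 genes held by each ligand class, with libraries as points, the mean as a bar and the SD as a line (n = 3). The steroid receptors (22%) and the orphan receptors (20.9%) lead, and the NR5A receptors lie at 0.00667%.

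Over the classes, the 5 steroid receptor genes held the largest share of the summed level per kilobase, 22 ± 0.547%. The 13 orphan receptor genes held 20.9 ± 0.186%, lower in 3 of 3 libraries. The order of these classes reversed with other lengths. By the longest transcript the steroid receptors held 20.8% and the orphan receptors 23.9%, and by plain CPM 28.5% and 29.9%. The orphan share came mostly from Nr2c2. Without the 4 genes that share over 30% of their exon bases with other genes (Nr1i3, Nr2c2, Nr2f6 and Rarb), an alternative chosen after the data were seen, the steroid receptors held 25.4% and the orphan receptors 9.73%. The lipid sensors held 17.5 ± 0.834%, the haem and sterol clock receptors 11.6 ± 1.32%, the RXR genes 9.48 ± 0.454% and the retinoic acid receptors 7.63 ± 1.26%. The thyroid hormone receptors held 5.83 ± 0.390% and the vitamin D and xenobiotic receptors 5.07 ± 0.506%.

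**Figure D3:**
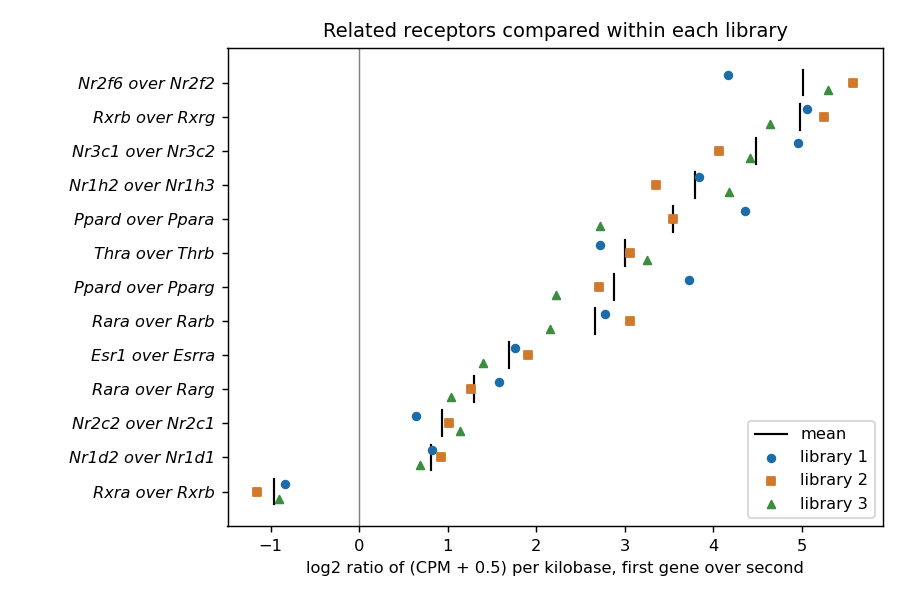
Log2 ratio of (CPM + 0.5) per kilobase between related receptor genes within each library, with libraries as points and the mean as a line. In each of the 13 pairs the 3 libraries lie on the same side of 0, from -0.96 for Rxra over Rxrb to 5.01 for Nr2f6 over Nr2f2.

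In most families a single member carried most of the RNA. Of 13 pairs of related genes compared within libraries, the sign of the difference was the same in 3 of 3 libraries for every pair. Flipping the signs in all ways gave each pair an exact permutation p = 0.25 (two-sided), which is the lowest value possible with 3 libraries and is also 0.25 when adjusted over the 13 pairs by Benjamini-Hochberg. The remaining differences were 3.79 (SD 0.42) for Nr1h2 over Nr1h3, 4.99 (SD 0.31) for Rxrb over Rxrg and 5.01 (SD 0.75) for Nr2f6 over Nr2f2. Where the lower gene is near 0, the added 0.5 CPM sets the size of the difference. No sign changed with other pseudocounts, plain CPM, the longest transcript as length, or without any library.

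Receptors act through shared cofactors, and these were more abundant than most receptors in CPM, which is not a comparison per length. The median of 8 corepressor genes was 130.5 CPM, and all 8 passed 1 CPM. Ncor1, the scaffold that unliganded thyroid hormone and retinoic acid receptors recruit, lay at 625 ± 14.5 CPM, Tbl1xr1 at 268 ± 0.390 CPM and Nrip1 at 184 ± 7.5 CPM, with Gps2 lowest at 47.6 ± 6.79 CPM. Likewise all 11 coactivator genes passed 1 CPM, and their median was 125 CPM. The acetyltransferase genes Crebbp and Ep300 lay at 452 ± 69.7 and 385 ± 52.1 CPM, Ncoa2 at 331 ± 30.2 CPM and the metabolic coactivator gene Ppargc1a lowest at 8.52 ± 1.43 CPM.

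The share of receptor genes that differed between libraries lay near that of all genes. By a chi-square test of the counts, 19 of the 25 genes at 1 CPM or more differed between libraries beyond read-counting noise after Benjamini-Hochberg adjustment over 12965 genes, against 82.6% of all genes tested. This is a low bar, since amplified reads are not separate molecules. Nr1h2, Rxra, Nr6a1, Rarg, Esrra and Nr1d1 did not pass, with adjusted p from 0.767 for Nr1h2 down to 0.102 for Nr1d1. By edgeR's quasi-likelihood F test of the spread over the trend of genes of like abundance, 0 of 25 passed an adjusted p of 0.05, against 0.00771% of all genes (1 gene, Elane), and DESeq2 marked 0 of 25 as dispersion outliers. With the same edgeR test 1 receptor gene, Rorb, had an unadjusted p under 0.05, against 4.57% of all genes, and its adjusted p was 0.983.

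**Figure D4:**
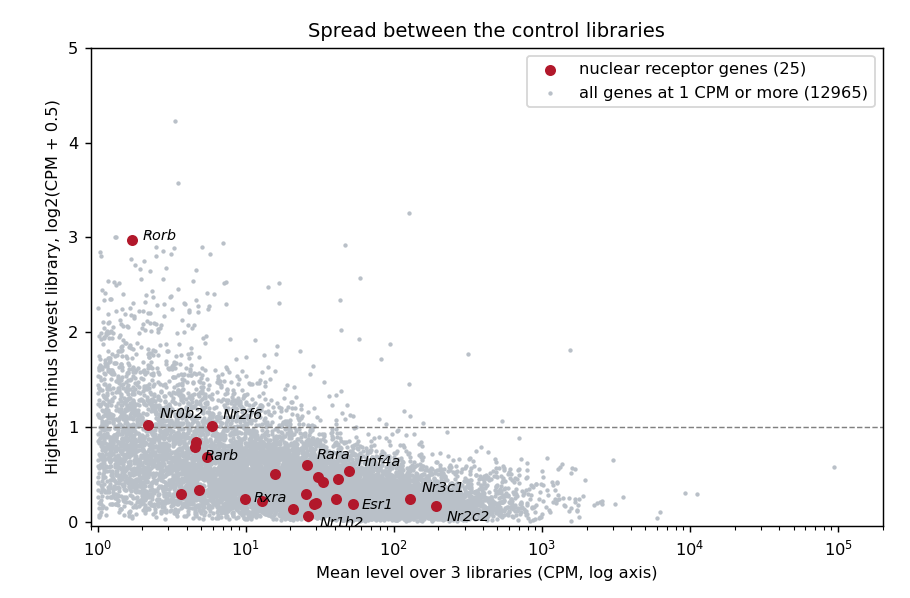
Highest minus lowest library in log2(CPM + 0.5) against the mean level for the 25 nuclear receptor genes at 1 CPM or more (red) and all 12965 genes at that level (grey), with the 2-fold line dashed. Rorb lies at 2.97, Nr0b2 and Nr2f6 lie just above 1, and the other receptor genes lie below 1.

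Over 2-fold between the highest and lowest library, on the log2(CPM + 0.5) scale, were 3 of the 25 genes (12%), against 8.7% of all genes. They were Rorb (2.97), Nr0b2 (1.02) and Nr2f6 (1.01). The count of receptor genes was 2 with TMM scaling (1100 of all genes, against 1128 as counted here), 1 with a pseudocount of 1 (782 of all genes), 1 without library 1 (328 of all genes) and 0 without library 2 (683 of all genes). The median range was 0.336 over the 25 genes and 0.355 over all genes at that level. Library 1 gave the highest level for 12 of the 25 genes (48.0%), against 31.9% of all genes, and the lowest for 9 (36%), against 44.3%. Library 1 also held the most reads of the ribosomal RNA precursor Rn45s, 11.8% of gene counts against 8.20% and 7.91% in libraries 2 and 3. Without Rn45s the totals were 0.882, 0.918 and 0.921 times as large in libraries 1, 2 and 3, which raises the levels of library 1 most. The means of the 25 genes then lay 1.09 to 1.11 times higher.

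The starts of the expressed receptor genes had a higher median CpG ratio than those of the others. Taking for each gene the RefSeq window with the highest observed over expected CpG ratio, the median was 0.713 over 23 receptor genes at 1 CPM or more, 0.5 over 16 under 1 CPM and 0.415 over all 27025 genes with a window. A ratio of at least 0.6 was found in 14 of the 23, in 6 of the 16 and in 38.4% of all. Genes that went against this include Hnf4a and Nr0b2, with ratios of 0.183 and 0.162 at 49.8 ± 9.48 and 2.19 ± 1.07 CPM. Esr1 (0.463), Pgr (0.427) and Nr1d1 (0.404) at 1 CPM or more are among them too. So are Pparg (0.909) and Esrrg, with 1.07 at 0.209 ± 0.182 CPM. Nr3c1, Thra, Hnf4g and Nr5a1 had no window. The values over all genes include genes under 1 CPM, and those of all expressed genes were not taken. These values describe the windows and were not tested.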

How the data were processed

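RNA of sorted HSPCs was sequenced in 3 libraries of 1 group. Per the labels' protocols, 10 ng of total RNA per library was turned into DNA and amplified (NuGEN Ovation, primed at poly(A) tails and at random) and sequenced on an Illumina HiSeq. The authors deposited raw read counts per gene symbol, with mm10, HTSeq, DESeq2 and TopHat2 2.0.9 listed in the submitters' processing notes. No source used here gives the strand setting or gene model. Besides the gene rows, 92 ERCC rows and 5 category rows were left out of library sizes. Category rows in no gene held 42.9 to 48.4% of all entries, and ambiguous ones 0.666 to 0.8%.

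CPM used plain gene-row totals. Levels compared between genes were divided by the union of annotated exons (GENCODE M21, GRCm38, the assembly of mm10). A mean of 1 CPM or more was required to enter the chi-square test (2 degrees of freedom) and edgeR's quasi-likelihood test (intercept only, TMM, robust). Both used Benjamini-Hochberg adjustment over all genes tested, and both were tested on simulated data with changes planted in library 1. There the edgeR test found 46% of 2-fold and 80% of 4-fold changes, and the chi-square test 100% of 2-fold changes. No change was planted in the lowest genes that entered the tests, so a receptor gene that did not pass may still vary. All receptor genes are named, and of each pathway list the 3 highest and the lowest with a count, apart from a few list genes that are not reported here. List genes with no count were named after their values were seen. The members and lists were chosen with earlier results of these data known. Alternatives were other scalings, minima, pseudocounts, lengths, edgeR settings, DESeq2 and leaving out each library. Sts has no row and was not analysed here. Tests ran in edgeR 4.0.16 and DESeq2 1.42.0 under R 4.3.3, and sequences were handled in Python 3.11.15.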

Additional observations from a re-analysis of the deposited data

Results flagged for a closer look

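The ERCC spike-in rows, which enter no comparison above, held counts in every library. They made up 0.567%, 0.325% and 0.233% of all entries in libraries 1, 2 and 3, far above the 3 counts that a 0 allows.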

How the results depend on the processing

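No paired analysis was possible because all 3 libraries belong to 1 group. No difference between related genes changed sign. Levels of the 25 receptor genes at 1 CPM or more were 0.98 to 1.01 times those reported with TMM or DESeq2 scaling, 1.09 to 1.11 times without Rn45s in the totals, and 0.196 to 1.46 times without a library, lowest and highest for Rorb (without library 2 and without library 1). No receptor gene passed the edgeR spread test under any setting tried. Over all genes that test called 16 without a minimum, 30 were DESeq2 dispersion outliers, and without a library it called 1 to 16. Chi-square calls were 29 receptor genes without a minimum (12802 of all genes), against 19 of 25 with it (10707 of 12965 genes). Without a minimum, all but 6 of the 43 receptor genes and all but 7093 of the 24421 gene rows entered the test. The rise therefore goes with more genes tested. Without a library, 12 to 17 of the 24 to 26 receptor genes at the minimum were called (6660 to 8709 of all genes). Receptor genes over 2-fold numbered 1 with a pseudocount of 1, and 0 to 3 without a library (all genes 328 to 683, and 737 at a minimum of 2 CPM). Receptor genes past the minimum level numbered 24 to 26 under these settings.

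In class shares, plain CPM gave 28.5% for steroid, 4.27% for thyroid hormone, 5.04% for retinoic acid, 6.31% for RXR, 4.22% for vitamin D and xenobiotic, 11.7% for lipid, 10.1% for clock and 29.9% for orphan receptors. The longest transcript as length gave 20.8% for steroid, 7.42% for thyroid hormone, 9.40% for clock and 23.9% for orphan receptors. Without genes that share over 30% of exon bases, an alternative added after seeing the data, the shares were 25.4% for steroid, 6.72% for thyroid hormone, 10.9% for RXR, 5.74% for vitamin D and xenobiotic, 20.1% for lipid, 13.3% for clock and 9.73% for orphan receptors. These shifts follow from the lengths and genes that enter each sum. Depth limits the genes with under 3 counts in a library, and levels of Rorb and Nr1i3 rest on library 2.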
